A study of Mus musculus with 12 samples.

Results

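Among 12 mammary tumors taken from 9 MADM-mutant mice, 9 tumors from 6 mice formed a set of Met-high epithelial tumors that was divided by the level of basal keratins. The tumors were selected on 2 genes, with Epcam at 200 TPM or more and Met at 1000 TPM or more. TPM, the unit of the deposited values, divides the reads of a gene by its length and scales each tumor to the same total. The class was then chosen by the median TPM of Krt5, Krt14 and Krt17, with tumors at 90 TPM or more called high and tumors under 50 TPM called low. This gave 5 high tumors from 4 mice (tumors 1, 3, 4, 6 and 12) and 4 low tumors from 3 mice (tumors 5, 7, 10 and 11), and values are listed in this order throughout. Tumors 3 and 4 came from 1 mouse. Tumors 10, 11 and 12 came from another, which is therefore in both classes.

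All tumors carried the same genotype, given in the labels as MADM RG;GR alleles on a mixed background, and none was treated. In this model, mosaic analysis with double markers (MADM), Cre recombinase exchanges chromosome arms in dividing cells, so that scattered cells lose both Brca1 and p53 while most cells around them stay heterozygous. Cre was driven by the MMTV promoter, which is active mainly in mammary epithelium. Whole pieces of tumor were homogenised without sorting, so that stroma, immune cells and heterozygous cells contributed RNA, and the ages of the mice were not given in the labels. No normal gland was among the samples used here, and the classes are not conditions of the study: both were drawn from measured levels.

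The mammary epithelium has an inner luminal layer, whose cells make keratins 8, 18 and 19, and an outer basal layer of contractile myoepithelial cells, which make keratins 5 and 14. Keratins assemble as pairs of a type I and a type II chain, and keratins 5 and 14 form the usual basal pair. Keratins 6, 16 and 17 are scarce in resting epithelia and are known to be induced in wounded or hyperproliferative epidermis and in some carcinomas, and KRT5, KRT14 and KRT17 are used together as markers of basal-like breast cancer.

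Krt17 alone set the classes. Krt17 (ENSMUSG00000035557, chromosome 11 from 100256217 to 100261029, minus strand), a type I keratin, was at 213, 123, 92.8, 116 and 97.1 TPM in the high tumors and at 16.5, 16.4, 31.9 and 45.0 TPM in the low tumors, and its value was the median of the 3 keratins in every one of the 9 tumors. No selected tumor had a median between 50 and 90 TPM: tumor 4 was just inside the upper limit at 92.8 TPM and tumor 11 just under the lower limit at 45.0 TPM. Krt14 (chromosome 11 from 100203162 to 100207548, minus strand), the type I partner in the basal pair, did not follow the classes. It was at 1266, 318, 258, 717 and 237 TPM in the high tumors and at 93.3, 912, 431 and 192 TPM in the low tumors, so that tumor 7, a low tumor, had the second highest value of the 9. The ratio of Krt14 to Krt17 lay between 2.44 and 6.20 in the high tumors and between 4.27 and 55.8 in the low tumors. Krt5 (chromosome 15 from 101707070 to 101712898, minus strand), the type II partner, was scarce everywhere. It was at 8.47, 8.29, 13.4, 2.42 and 11.1 TPM in the high tumors and at 0.313, 1.07, 2.21 and 0.195 TPM in the low tumors, without overlap but with tumor 6 at 2.42 TPM close to tumor 10 at 2.21 TPM. The name basal keratin high therefore held for Krt17 and Krt5 and not for Krt14, and the classes are called Krt17-high and Krt17-low below. These 3 genes chose the classes, so no p of theirs is reported, although they stayed in the fit over all genes and in its adjustment.

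**Figure D1:**
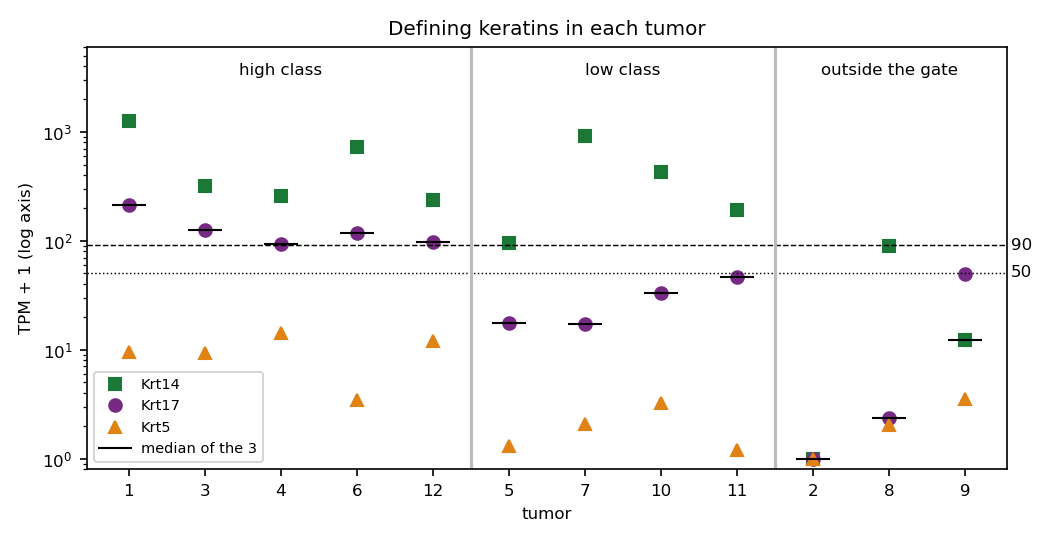
TPM + 1 (log axis) of Krt14, Krt17 and Krt5 in each of the 12 tumors, with a black bar at the median of the 3 and lines at the limits of 90 TPM (dashed) and 50 TPM (dotted). Krt17 lies on the median in all 9 selected tumors, and Krt14 of the low tumors 7 and 10 (912 and 431 TPM) is above that of 3 high tumors.

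The selection left out tumor 2 (Epcam at 0 and Met at 1.13 TPM), tumor 8 (Epcam at 2.03 TPM) and tumor 9 (Met at 78.3 TPM). Of the selected tumors, tumor 7 had the lowest Epcam (239 TPM) and tumor 5 the lowest Met (1468 TPM), and neither gene separated the classes. The 9 tumors had 15573 to 16417 genes at 1 TPM or more. TPM keeps no read number, so the depth of each tumor, and with it the counting error of low values, is unknown.

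Of 16363 genes with a mean of 1 TPM or more in the 9 tumors, other than the 3 defining keratins, none passed the test between the classes. Log2(TPM + 1) was compared with limma over 7 values, 1 for each mouse in each class (4 high, 3 low), with the mouse as a random block, and a difference below is the estimate of that fit, high minus low, on the log2(TPM + 1) scale, which understates changes of low genes. At an adjusted p under 0.05, 0 genes were higher (0%) and 0 lower (0%) in the Krt17-high class, and the smallest adjusted p was 0.490. At an unadjusted p under 0.05, 335 genes (2.05%) were higher and 302 (1.85%) lower. The values below are therefore descriptions of single genes, and an exact two-sided permutation test over the 7 values has 35 assignments and cannot give a p below 0.057. That test treats the 7 values as exchangeable, although 1 mouse gave a value in each class.

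The other keratins of stratified epithelia had the largest median difference of the 26 gene lists examined. Of its 7 genes, 5 reached a mean of 1 TPM and were tested, and these 5 had positive differences with a median of 1.37, while the median over all genes tested was -0.0042. None passed the adjusted test. Krt6a, a type II partner of keratins 16 and 17, was at 87.1, 109, 85.3, 51.6 and 55.0 TPM in the high tumors and at 1.07, 56.7, 49.4 and 5.40 TPM in the low tumors (difference 2.24 ± 0.80, SE). Krt6b was at 22.9, 31.2, 20.6, 12.9 and 18.5 TPM in the high tumors and at 1.41, 22.0, 14.4 and 1.50 TPM in the low tumors (1.56 ± 0.56). For both genes the low tumors themselves divided: tumors 7 and 10 lay within or close to the range of the high tumors, and tumors 5 and 11 far below it. Krt16, the type I partner of keratin 6, was at 35.2, 20.6, 15.5, 28.1 and 21.4 TPM in the high tumors and at 1.93, 23.0, 15.5 and 6.21 TPM in the low tumors (1.37 ± 0.53). Without the mouse of tumor 5 the median of this list was 0.79, below the 0.86 of the milk genes, so it was then not the largest. The list's median was 1.86 without the mouse of tumor 7. Without the mouse of tumor 5 the difference of Krt6a was 1.29 and that of Krt16 was 0.79. Krt15 and Krt80 differed by 0.54 ± 0.62 and 0.24 ± 0.40, and Krt13 was at 0 in all 9 tumors.

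On chromosome 11 Krt17 lies between Krt16, described above, and Krt42. Krt42 (chromosome 11 from 100262882 to 100269871), a type I keratin gene, was at 1.24, 1.93, 2.14, 1.24 and 5.75 TPM in the high tumors and at 0.370, 0.149, 0.265 and 0.662 TPM in the low tumors, with no overlap (difference 1.54 ± 0.37, adjusted p = 0.998). These are low levels, and 75-base stretches of the longest transcript of Krt17 and Krt42 matched no other gene. Eif1, the next gene beyond Krt42, was abundant and differed by 0.03. Krt19, a luminal keratin gene on the other side of Krt14, was at 353, 106, 98.6, 65.2 and 577 TPM in the high tumors and at 241, 153, 157 and 347 TPM in the low tumors. Krt6a and Krt6b share 37.5% and 39.6% of such stretches with other genes, chiefly each other and Gm5478, and both also share stretches with the class-defining Krt5. Krt16 shares 28.9%, with Gm11597 and the class-defining Krt14. The division of reads within these groups is uncertain, and its part in the values of Krt6a, Krt6b and Krt16 was not tested.

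**Figure D2:**
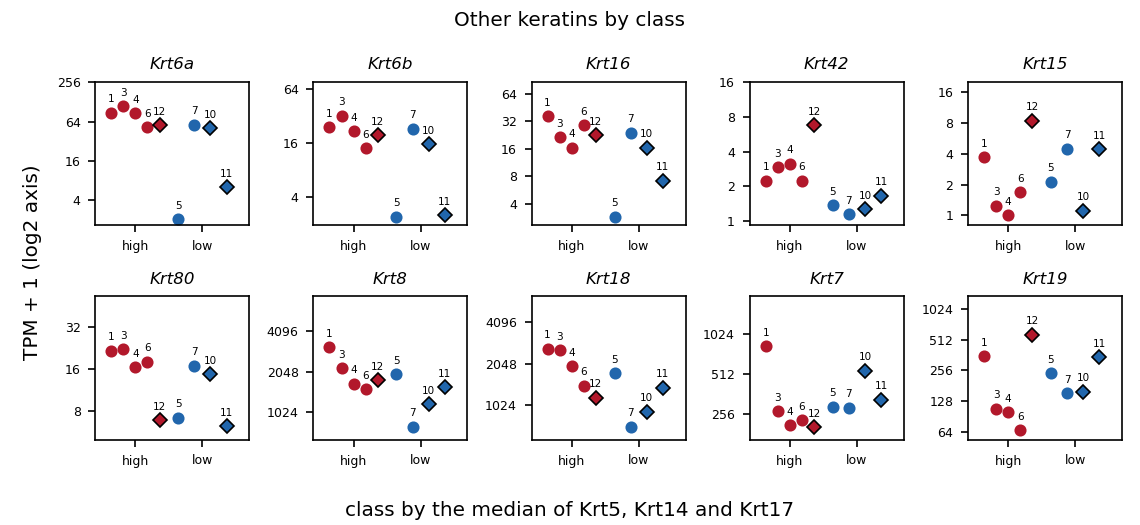
TPM + 1 (log2 axis, a separate scale in each panel) of 10 other keratins in the 5 Krt17-high and 4 Krt17-low tumors, numbered by tumor, with black-edged diamonds for the 3 tumors of the mouse that is in both classes. Krt6a, Krt6b and Krt16 are low in tumors 5 and 11 only, while Krt42 lies higher in all 5 high tumors.

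The luminal keratins pointed both ways, with 3 of 5 differences positive and a median of 0.31. The median was 0.086 without the mouse of tumor 1 and 0.57 without that of tumor 5 or that of tumor 6. Krt8, a type II luminal keratin, was at 3128, 2192, 1678, 1526 and 1783 TPM in the high tumors and at 1968, 799, 1176 and 1576 TPM in the low tumors (difference 0.57 ± 0.31), and its partner Krt18 differed by 0.48 ± 0.34. Both were above Krt14 in every selected tumor but tumor 7, levels that can be compared because TPM is per length. Krt7 was at 829, 267, 209, 227 and 202 TPM in the high tumors and at 287, 284, 542 and 326 TPM in the low tumors. Of its 5 high values, 4 lay below all the low values, and tumor 1 above them.

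Of the basal and myoepithelial lists, 3 of 10 contractile genes, 2 of 12 basement membrane adhesion genes and 0 of 9 transcription factors had positive differences at an unadjusted p under 0.05, against 2.05% of all genes. In the negative direction 1 of the 9 transcription factors, Id4, was at such a p, against 1.85% of all genes, and none of the contractile or adhesion genes was. Actg2, the enteric smooth muscle actin, was at 25.1, 23.8, 23.3, 19.0 and 17.3 TPM in the high tumors and at 12.8, 3.67, 8.58 and 13.2 TPM in the low tumors (difference 1.11 ± 0.34). Myl9, a myosin light chain of smooth muscle, was at 27.2, 42.9, 69.1, 115 and 32.7 TPM in the high tumors and at 18.6, 9.40, 21.6 and 24.8 TPM in the low tumors (1.26 ± 0.45). In both the classes did not overlap. The third, Oxtr, the oxytocin receptor, differed by 1.42 ± 0.60 at levels of 0 to 9.05 TPM, with overlap. Acta2, the smooth muscle actin used to mark myoepithelium, was at 104, 141, 194, 50.4 and 72.8 TPM in the high tumors and at 77.9, 46.6, 78.7 and 86.3 TPM in the low tumors. Here 3 high tumors lay above all 4 low tumors and the other 2 among them. Over the 10 contractile genes the median difference was 0.27, with 8 positive. It was 0.17 without the mouse of tumors 3 and 4, 0.47 without that of tumor 6 and 0.83 without that of tumors 10, 11 and 12. The difference of Actg2 was 0.74 without the mouse of tumor 7, and that of Myl9 was 1.99 without the mouse of tumors 10, 11 and 12.

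Id4, a helix-loop-helix regulator found in basal mammary cells, had the most negative difference of the 9 transcription factors listed, of which 3 were positive and 6 negative (median -0.20). This median was -0.021 without the mouse of tumor 6 and -0.67 without that of tumors 10, 11 and 12. Id4 was at 23.7, 0.167, 1.34, 9.37 and 2.07 TPM in the high tumors and at 25.5, 15.8, 9.34 and 29.3 TPM in the low tumors (difference -1.96 ± 0.70), with tumors 1 and 6 of the high class inside the low range, and its difference was -1.25 without the mouse of tumors 3 and 4. Trp63, which encodes p63, the master regulator of basal epithelia, was at 0.454, 0.312, 0.716, 14.2 and 15.5 TPM in the high tumors and at 5.48, 13.6, 0.551 and 3.01 TPM in the low tumors. The highest and the lowest p63 transcript levels were thus both in Krt17-high tumors. Sox10 was abundant in every tumor, at 160 to 536 TPM in the high and 271 to 416 TPM in the low class. The 12 basement membrane adhesion genes had 9 positive differences and a median of 0.16, which was 0.047 without the mouse of tumor 1 and 0.26 without that of tumors 3 and 4. Of these, Dst, which encodes a keratin linker of hemidesmosomes, and Col17a1, which encodes their collagen XVII, differed by 1.18 ± 0.48 and 0.95 ± 0.26, while Itgb1, the shared beta chain of many integrins, differed by 0.00. Without the mouse of tumor 7 the difference of Dst was 0.67.

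In the squamous list, Tgm1, the enzyme that crosslinks the cornified envelope, was at 31.4, 13.6, 12.1, 13.4 and 16.2 TPM in the high tumors and at 4.03, 3.26, 10.0 and 6.51 TPM in the low tumors (difference 1.46 ± 0.34). All 5 high tumors lay above all 4 low tumors. The 8 tested genes of this list had a median difference of -0.04, with 4 of each sign, and the median was between -0.07 and 0.17 when each mouse was left out in turn. Ly6d and Lypd3, surface proteins of stratified epithelia, differed by -0.56 ± 0.80 and 0.80 ± 0.68. Sfn, the epithelial 14-3-3 protein sigma, picked after its values were seen, was at 124, 166, 135, 147 and 159 TPM in the high tumors and at 67.7, 30.9, 96.7 and 82.9 TPM in the low tumors (1.19 ± 0.28). Of 11 skin and hair genes, 6 were at 0 in all 9 tumors, among them the hair keratins Krt33a and Krt35, the list's summed level was at most 12.6 TPM, and the 2 genes tested differed by -0.59 and 0.46.

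Over all lists, 228 genes were tested, of which 14 were higher and 6 lower in the Krt17-high class at an unadjusted p under 0.05, against 2.05% and 1.85% of all genes, and none passed the adjusted test. Every high tumor was above every low tumor for 4 of them (Actg2, Myl9, Tgm1 and Sparc), against 0.868% of all genes tested, and below for none, against 0.996%. Luminal progenitor genes had 4 positive and 8 negative differences (median -0.23). The median was -0.054 without the mouse of tumor 5, -0.056 without that of tumor 6 and -0.54 without that of tumors 10, 11 and 12. The only one at an unadjusted p under 0.05 was Tspan8, a tetraspanin, at 1.81, 3.26, 4.53, 0.958 and 8.34 TPM in the high tumors and at 1.72, 1.59, 0.298 and 2.64 TPM in the low tumors (1.08 ± 0.47), with overlap. Its difference rested on the mouse of tumors 10, 11 and 12, without which it was 0.17 (limma, unadjusted p = 0.735), and it was 0.73 without the mouse of tumors 3 and 4. Lcn2, a secreted iron-siderophore binding protein, was at 2895 to 7824 TPM in the high and 1762 to 5760 TPM in the low class. Milk genes had 8 positive differences of 9 and the second largest median of the 26 lists (0.82, and 0.47 without the mouse of tumor 7), but their summed levels overlapped, at 1144 to 5371 TPM in the high and 1129 to 7439 TPM in the low class. The one at an unadjusted p under 0.05, the casein Csn1s2a, was at 0.525, 5.07, 8.06, 55.0 and 23.3 TPM in the high tumors and at 0.273, 0, 3.85 and 1.98 TPM in the low tumors (2.74 ± 0.91). Its lowest high value lay inside the low range. Proliferation genes had 8 positive and 14 negative differences (median -0.10, and between -0.29 and -0.011 when each mouse was left out in turn), with Mki67 at 42.4 to 123 TPM in the high and 71.3 to 119 TPM in the low class.

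Of the genes that sense hormones in luminal cells, 9 of 10 tested had positive differences (median 0.27). The median was 0.062 without the mouse of tumors 3 and 4 and 0.43 without that of tumor 6. Gata3, a luminal transcription factor of this list, was at 16.6 to 30.4 TPM in the high and 8.56 to 20.6 TPM in the low class. The Notch, Wnt and growth factor lists had medians of 0.27, -0.07 and 0.06. When each mouse was left out in turn, the Wnt median was between -0.22 and -0.0067 and the growth factor median between -0.06, without the mouse of tumor 7, and 0.42, without that of tumors 10, 11 and 12. In the Wnt list Dkk3, a secreted protein of the Dickkopf family, differed by 1.04 ± 0.44 with overlap, and Wnt7b, a ligand, was at 96.4 to 274 TPM in the high and 94.6 to 178 TPM in the low class. Epithelial junction genes had 2 positive and 10 negative differences (median -0.12, and -0.19 without the mouse of tumors 10, 11 and 12), and Cldn4, a claudin of tight junctions, was at 309 to 841 TPM in the high and 247 to 858 TPM in the low class. The desmosome list had a median of -0.18, which was -0.30 without the mouse of tumor 1 and -0.045 without that of tumors 3 and 4. Its member Dsg2, a desmosomal cadherin, differed by -0.50 ± 0.19, and by -0.22 without the mouse of tumors 10, 11 and 12. The basal genes of the PAM50 breast cancer panel, without the 3 defining keratins, had a median of 0.13 over 7 genes, with Mia, a small secreted protein, at 0.65 ± 0.28. This median was 0.36 without the mouse of tumor 7. It turned to -0.015 without the mouse of tumor 5 and -0.14 without that of tumors 10, 11 and 12.

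**Figure D3:**
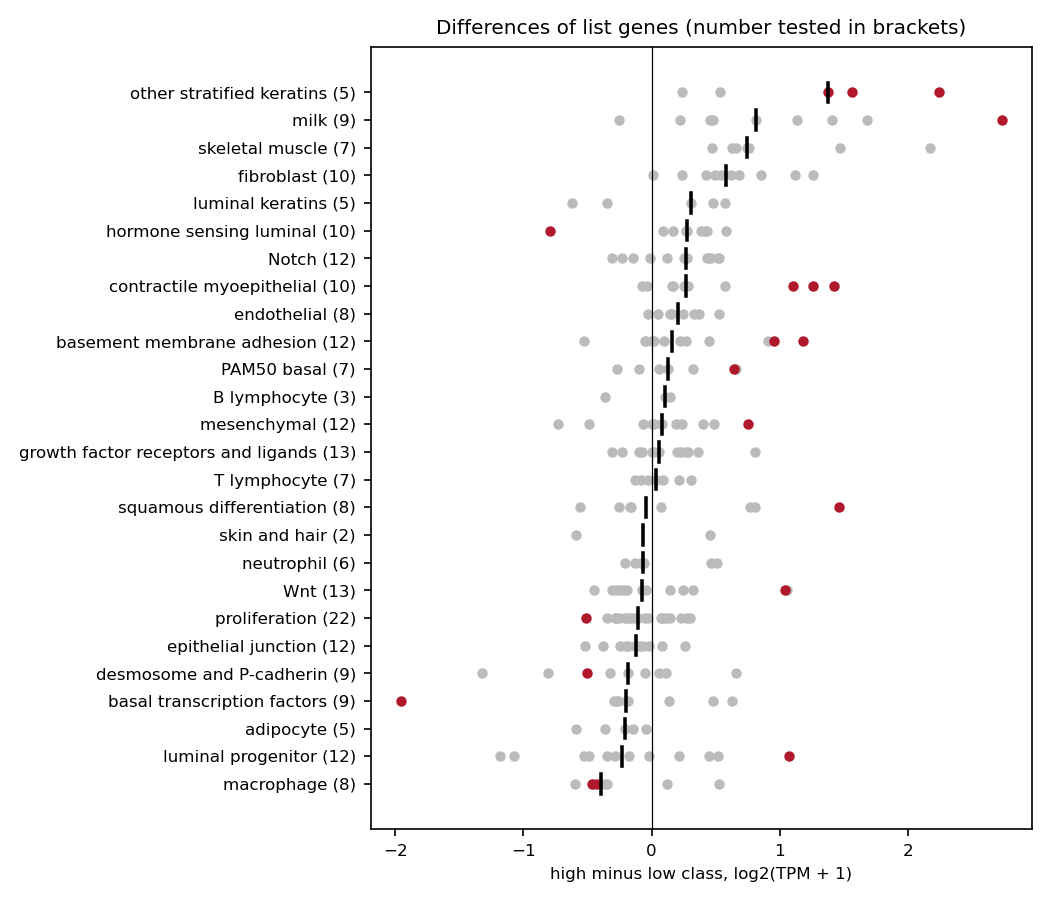
Difference of each tested list gene (high minus low class, log2(TPM + 1)), with the list's median as a black bar, the number tested in brackets and genes at an unadjusted p under 0.05 in red. The other stratified keratins lie furthest to the right (median 1.37) and the macrophage genes furthest to the left (median -0.39), and no gene passed the adjusted test.

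No marker of another cell type passed the adjusted test. All 10 fibroblast genes had positive differences (median 0.58), and their summed level was 653 to 3914 TPM in the high tumors and 286 to 986 TPM in the low tumors, with no marker at 0 in all 9 tumors. The median was 0.26 without the mouse of tumor 7 and 1.26 without that of tumors 10, 11 and 12. In this list Postn, the matrix protein periostin, was at 258 to 884 TPM in the high and 89.1 to 340 TPM in the low class. The mesenchymal list, which is not a list of another cell type, had 9 positive differences of 12, but a median of 0.08 and a range from -0.73 to 0.75. Its summed level was 1198 to 3590 TPM in the high and 1316 to 1451 TPM in the low class, and its median was between 0.060 and 0.23 when each mouse was left out in turn. Its member with the largest difference was Sparc, a matrix glycoprotein made by stroma and by mesenchymal-like tumor cells. Sparc was at 787, 579, 1634, 612 and 559 TPM in the high tumors and at 392, 257, 442 and 548 TPM in the low tumors (0.75 ± 0.27), with tumor 12 only just above tumor 11, and its difference was 1.29 without the mouse of tumors 10, 11 and 12. All 7 skeletal muscle genes had positive differences (median 0.74, and 1.30 without the mouse of tumors 10, 11 and 12), with a summed level of 6.60 to 382 TPM in the high tumors, highest in tumors 3 and 4, and 2.89 to 8.86 TPM in the low tumors. Macrophage genes had 6 negative differences of 8, C1qa and C1qb, the complement C1q chains, among them (-0.43 ± 0.18 and -0.46 ± 0.17), with summed levels of 1915 to 3626 TPM in the high and 1767 to 4179 TPM in the low class. The tested endothelial, T lymphocyte, B lymphocyte, neutrophil and adipocyte genes had medians of 0.20, 0.03, 0.11, -0.07 and -0.20, and each of these 5 medians changed sign when 1 or another mouse was left out. The part of these cells in the differences of the contractile genes, Sparc and the genes below was not tested, and in whole tumor tissue fewer cells of a type and less RNA per cell cannot be told apart.

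The 12 genes with the smallest p among those higher in the Krt17-high class and with a mean of 10 TPM or more included Dusp9, Cul7 and Nos2. Dusp9, a phosphatase of MAP kinases on chromosome X, was at 15.8, 13.9, 14.5, 23.3 and 23.8 TPM in the high tumors and at 5.58, 7.34, 4.85 and 5.63 TPM in the low tumors (difference 1.64 ± 0.24, adjusted p = 0.490). Cul7, a cullin scaffold of ubiquitin ligases, was at 34.8, 37.3, 34.3, 36.5 and 37.1 TPM in the high tumors and at 15.9, 17.6, 14.0 and 22.1 TPM in the low tumors (1.04 ± 0.15). In both the classes were apart. For Cul7 the gap in TPM was larger than the range inside either class, but on the log2(TPM + 1) scale it was about as large as the range of the low class. Nos2, inducible nitric oxide synthase, was at 23.1, 13.5, 9.18, 17.8 and 38.2 TPM in the high tumors and at 3.32, 6.97, 9.12 and 7.13 TPM in the low tumors (1.80 ± 0.35). The lowest high tumor, tumor 4, almost touched tumor 10. Macrophages also express this enzyme, and their part in its values was not tested.

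Adm, which encodes the vasoactive peptide adrenomedullin, was at 27.1, 57.3, 46.6, 48.0 and 32.6 TPM in the high tumors and at 14.7, 18.5, 8.20 and 13.4 TPM in the low tumors (1.41 ± 0.25). Adm is a known target of the hypoxia factor HIF-1. Hif1a, chosen after its values were seen, was at 49.5, 93.5, 87.1, 44.6 and 47.2 TPM in the high tumors and at 35.5, 43.9, 30.9 and 33.6 TPM in the low tumors (0.56 ± 0.23), and Vegfa, another such target, differed by -0.11 ± 0.49. The part of HIF-1 in the values of Adm was not tested. Prl2c3, a proliferin of the prolactin family, was at 20.1, 70.3, 263, 227 and 159 TPM in the high tumors and at 1.49, 6.39, 98.6 and 0.530 TPM in the low tumors (3.98 ± 0.69). Tumor 10 thus exceeded tumors 1 and 3. Prl2c2, a near copy of Prl2c3 (3.56 ± 0.59), shares 80.1% of its 75-base stretches with other genes, so reads of this family cannot be divided with certainty. Ddr2, a collagen receptor kinase that fibroblasts also express, was at 3.08 TPM in tumor 3 and at 12.5 to 25.1 TPM in the other high tumors, against 2.66 to 4.79 TPM in the low tumors. Slc4a3, an anion exchanger, and Tmem51 differed by 1.48 ± 0.27 and 0.94 ± 0.22, with no overlap. Mir6236 and Lars2 (0.97 ± 0.21 and 0.78 ± 0.18) lie at loci known to collect ribosomal RNA reads. Another pair of such loci, chosen after their values were seen, differed by 1.03 ± 0.24 (AY036118) and 0.30 ± 0.22 (Gm42418), and the part of ribosomal RNA carry-over in these values was not tested. In 8 of the 12 genes every high tumor lay above every low tumor, against 0.868% of all genes tested, a count that the choice by p favours.

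The 12 genes chosen in the same way among those lower in the Krt17-high class were led by Cttnbp2, a cortactin-binding protein. It was at 0.790, 0.180, 1.27, 0.423 and 3.16 TPM in the high tumors and at 16.3, 72.0, 3.75 and 85.3 TPM in the low tumors (difference -3.42 ± 0.53, adjusted p = 0.490). The classes did not overlap, but tumor 10 stood near the high tumors and tumors 7 and 11 far from them. Cttnbp2 lies 792.5 kb from Met on chromosome 6, and Met itself differed by -0.09 between the classes. Lsm8, an RNA-binding protein gene further along (chromosome 6 from 18848579 to 18855751) chosen after its values were seen, was at 81.0, 306, 196, 203 and 76.3 TPM in the high tumors and at 51.1, 5165, 4876 and 3302 TPM in the low tumors. Its 3 very high values were in tumors 7, 10 and 11, and tumor 5 of the low class had the lowest value of all 9. Snx25, a sorting nexin, was at 11.4, 11.7, 12.4, 10.4 and 13.0 TPM in the high tumors and at 17.8, 23.7, 24.4 and 16.7 TPM in the low tumors (-0.71 ± 0.18), without overlap. Enpp2, which encodes autotaxin, the enzyme that makes lysophosphatidic acid, was at 6.03, 2.25, 24.2, 4.27 and 8.67 TPM in the high tumors and at 17.5, 15.1, 10.8 and 31.2 TPM in the low tumors (-1.18 ± 0.24). Tumor 4 was the only high tumor inside the low range. Ntn1, the guidance cue netrin-1, differed by -1.49 ± 0.35, with tumor 1 at 29.8 TPM against 8.68 to 10.4 TPM in the other high tumors. The interleukin receptor chain Il18r1 and the cytidine deaminase Apobec1 differed by -0.76 ± 0.21 and -0.79 ± 0.22, both with overlap. Palmd, Hist1h2bg and Mbp differed by -0.97 to -0.66, and the interferon-inducible GTPases Gm4070 and Gvin1, near copies with 98.3% of their stretches shared, by -0.94 and -0.90. In 3 of the 12 every high tumor lay below every low tumor, against 0.996% of all genes tested. The choice by p favours this count too.

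**Figure D4:**
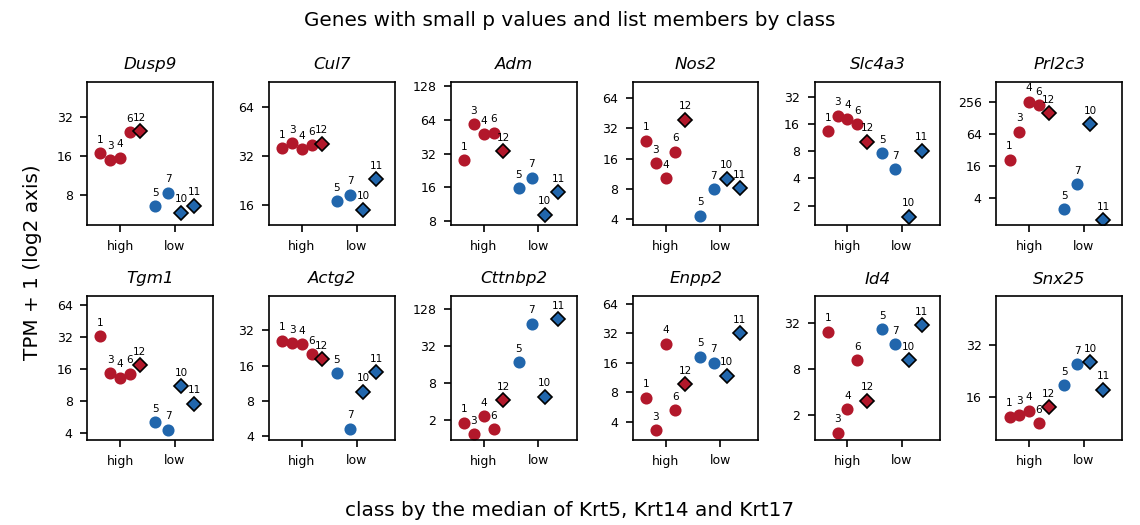
TPM + 1 (log2 axis, a separate scale in each panel) of 12 named genes in the 5 Krt17-high and 4 Krt17-low tumors, numbered by tumor, with black-edged diamonds for the mouse in both classes. Dusp9, Cul7, Adm, Nos2, Slc4a3, Tgm1 and Actg2 lie higher and Cttnbp2 and Snx25 lower in all 5 high tumors, and Prl2c3, Enpp2 and Id4 overlap.

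The mouse with tumors in both classes allowed a comparison inside 1 animal. Tumor 12 exceeded the mean of tumors 10 and 11 by 2.11 for Nos2, 1.99 for Dusp9, 1.55 for Adm and 1.03 for Cul7, and was below it by values of 2.28 for Cttnbp2 and 0.60 for Snx25 (log2 scale). The direction was that of the other mice for all 24 genes of smallest p, which were chosen with this mouse in the fit. Over all 16324 genes with a difference in both, the sign was shared by 7680 (47.0%), and over the 228 list genes by 106. Krt14 was lower in tumor 12 by 0.28 on this scale, while between the other mice it was higher by 1.12 in the high class. Trp63 was higher in tumor 12 by 2.72 and lower by 1.60 between the other mice. A single mouse gives no error for these differences.

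**Figure D5:**
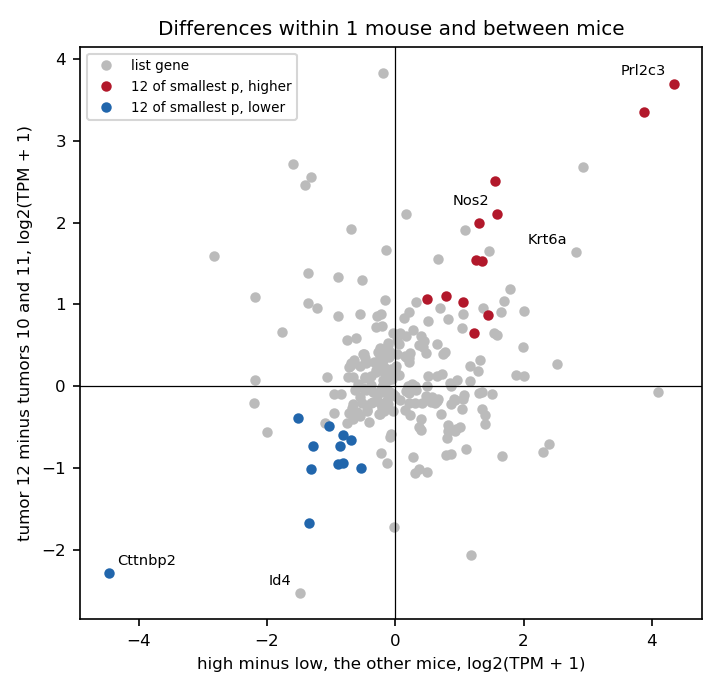
Difference of tumor 12 from the mean of tumors 10 and 11, which share a mouse (vertical), against the difference between classes in the other 5 mice (horizontal), both on log2(TPM + 1). The 12 genes of smallest p in each direction (red, blue), chosen with this mouse in the fit, all share the sign, and 106 of the 228 list genes (grey) do.

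Krt14 ordered the tumors in another way than Krt17. With the slope on Krt14 in place of the 2 classes, an alternative chosen after seeing the data, the estimates of 14 of the 46 genes followed (23 of those of smallest p, 19 of the list genes at an unadjusted p under 0.05, and Krt42, Sfn, Hif1a and AY036118) changed sign, Actg2, Id4, Sfn and Krt42 among them, and none passed the adjusted test. Leaving out 1 mouse moved the differences of 16 of these 46 genes by over 1.5 times. Beside those given above, these were Hif1a (0.36 without the mouse of tumors 3 and 4), Mia (0.43 without that mouse) and, without the mouse of tumors 10, 11 and 12, Krt42 (0.98), Mia (0.33), Dkk3 (0.67), Lars2 (0.50), AY036118 (0.54) and Palmd (-1.52).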

How the data were processed

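RNA from 12 MADM mammary tumors was sequenced as stranded poly(A) libraries with 75-base paired reads. Values were deposited as TPM, for which the authors aligned reads to the GRCm38 transcriptome with HISAT and quantified genes with StringTie 2.1.6 (submitters' processing notes), with 1 value per gene and tumor. How transcripts were summed per gene is not given in the sources used here. TPM holds no depth, so no count model was used.

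Each column was matched to its tumor by the animal and gland in the labels. Log2(TPM + 1) was averaged within a mouse and class, and genes with a mean of 1 TPM or more in the 9 tumors were compared with limma 3.58.1 in R 4.3.3 (trended variance prior, two-sided, Benjamini-Hochberg adjustment over 16366 genes, the 3 defining keratins included, threshold 0.05). The mouse was a random block. Because 1 mouse alone gave a pair among the 7 values, its correlation (0.56) was estimated on the 9 single tumors, a departure from the design first written. The labels give no batch. The fit was tested on simulated data. Named genes are the keratins and their neighbours, list genes at an unadjusted p under 0.05 or of high level, and, among genes with a mean of 10 TPM or more, the 12 of smallest p in each direction. A few genes that meet these rules are not reported here. The text says where another gene was picked with its values in view. The members, classes and gene lists were chosen with earlier results of these data known. Alternatives were a pseudocount of 0.1, other filters, units, scalings and variance prior, slopes on the keratins, the tumors outside the selection added, and leaving out each mouse. Locations came from GENCODE vM21 (GRCm38), which placed 47137 of 47593 identifiers. Stretches shared between genes were counted as exact 75-base matches among its transcripts. Figures were drawn with Python 3.11.15 and matplotlib 3.10.9.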

Additional observations from a re-analysis of the deposited data

Results flagged for a closer look

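Of 106 groups of 4 or 5 tumors examined, 5 held a tumor whose gap to the nearest other exceeded Dixon's 95% critical value, and chance alone gives about 1 in 20. Ntn1 was at 4.95 (log2(TPM + 1)) in tumor 1, with the nearest Krt17-high tumor at 3.51. The median of the luminal progenitor genes was 4.26 in tumor 6, with the nearest high tumor at 5.71. In tumor 4, the median of the epithelial junction genes was 6.07 against 6.38 in the nearest high tumor, and that of the macrophage genes 6.77 against 6.36. The median of the skeletal muscle genes was 0.19 in tumor 11 against 0 in the other 3 Krt17-low tumors. With 3 values tied at 0 any other value is flagged, so the rate of 1 in 20 does not apply to this group.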

How the results depend on the processing

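No gene was called under the 19 alternatives, with limma and an adjusted threshold of 0.05, except when 1 mouse was left out: between 0 and 1 genes lower in the Krt17-high class and 0 higher. The gene was Lsm8 without the mouse of tumor 5 (adjusted p = 0.0145) and Gm20521 without that of tumor 7 (0.0170), both named after their values were seen. Gm20521 was at 0 TPM in all 5 high tumors and in tumor 7.

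Of 46 genes followed, 31 kept their direction throughout. With the tumors outside the selection added, the differences reversed for Palmd (0.38) and Dsg2 (0.40). With the slope on Krt14, per log2 unit and chosen after seeing the data, they reversed for Mbp (0.0427), Id4 (0.26), Oxtr (-0.21), Actg2 (-0.0607), Dst (-0.16), Dsg2 (0.0243), Mia (-0.15), Tspan8 (-0.21), Csn1s2a (-0.0401), Dkk3 (-0.32), Cep55 (0.00112), C1qa (0.0549), Krt42 (-0.0955) and Sfn (-0.0564). The slope on Krt17 equals that on the keratin median. At an unadjusted p under 0.05, genes lower numbered 302 in the main comparison and 542 with the mouse ignored. They numbered 568 with 1 tumor per mouse and class, 193 with the other tumors added and 835 on Krt14. Without a filter 575 were higher and 588 lower, and with a mean of 10 TPM 201 and 197. The cause was not tested. Of 26 list medians, 8 kept their sign in every setting run on them. No paired analysis was possible because a single mouse had tumors in both classes (it entered as a random block). Depth is unknown and 6 mice limit the precision.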
